A study of Homo sapiens with 3 samples.

Results

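The genes described here are 10 transcripts that cells make in response to signalling through the kinase ERK, the last step of the RAS-RAF-MEK-ERK (MAPK) cascade: DUSP4, DUSP5, DUSP6, SPRY2, SPRY4, SPRED1, ETV4, ETV5, EGR1 and FOSL1. They were chosen by name, as known output and feedback genes of the pathway, after earlier results of these data had been seen. Each symbol matched 1 of the 58333 Ensembl genes in the table. The data come from Cal62, a human thyroid cancer cell line grown in DMEM with 10% fetal bovine serum. Cells were transfected with a control siRNA (siControl) or with siADAR1 #1 or siADAR1 #2, which target ADAR, the gene of the RNA-editing enzyme ADAR1, and every group received an siRNA with the same lipid reagent. Poly(A)+ RNA was sequenced from 2 replicates of each transfection, which gives 6 libraries, 2 per condition. No other genotype or drug was used, and the time from transfection to RNA isolation was not given for these libraries in the sources used here. The comparisons ask how each ERK output gene stood after each siRNA.

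Growth factor receptors activate RAS, which drives RAF, MEK and then ERK, and ERK enters the nucleus and switches on transcription. Many of its target genes encode brakes on the same route, so their transcripts are widely used as a readout of pathway output. Dual-specificity phosphatases (DUSP) remove phosphate from ERK, Sprouty (SPRY) and SPRED proteins act upstream at the level of RAS and RAF, and ETV4, ETV5, EGR1 and FOSL1 are transcription factors that carry the signal on. Thyroid carcinomas commonly carry mutations that activate this pathway. The RNA here was taken from whole cultures, in which fewer cells of a type and less RNA per cell cannot be told apart, and ERK activity itself was not measured.

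The libraries held 30114840 to 50029763 gene reads, so the least abundant member, DUSP4, still had 269 to 1006 reads in each library. Levels are given as normalized counts, the reads divided by each library's size factor, and differences as log2FC on the deposited variance-stabilized log2 scale with its standard error (SE) from limma. A gene was called at a Benjamini-Hochberg adjusted p under 0.05 with a log2FC beyond 0.5 in either direction, and all 10 members were among the 19590 genes tested. ADAR stood at 10906 and 11701 normalized counts in siControl, 1328 and 2246 with siADAR1 #1, and 1663 and 2928 with siADAR1 #2, means of 15.8% and 20.3% of siControl. It fell in both comparisons (log2FC -2.71 ± 0.30, adjusted p = 0.00294, and -2.35 ± 0.30, adjusted p = 0.00124), and the siRNAs did not differ from each other in ADAR by the test (log2FC 0.35 ± 0.30, adjusted p = 0.396). Of the thyroid markers, PAX8 (2542 to 15868 normalized counts) and HHEX (1769 to 2580) were detected throughout, whereas NKX2-1 had 0 reads in all 6 libraries, which allows up to 3 reads per library by counting error alone, and TG stayed at or below 62.4 normalized counts. The 8 thyroid markers summed to 16292 and 18143 in siControl, 12849 and 17806 with siADAR1 #1, and 4692 and 7475 with siADAR1 #2. PAX8 made up most of this sum, at 13927 and 15868, 10272 and 15074, and 2542 and 5484, while TSHR was not lower with siADAR1 #2, at 70.8 and 73.4, 61.7 and 41.5, and 95.3 and 107. TG, which was uneven between replicates (33.8 and 0 in siControl), had 41.1 and 1.3 with siADAR1 #1 and 62.4 and 35.2 with siADAR1 #2. The 6 markers of epithelial or carcinoma cells summed to between 159933 and 303579. Among them, the mesenchymal filament VIM had 105253 and 92977 in siControl, 5464 and 17949 with siADAR1 #1, and 50998 and 66855 with siADAR1 #2. The keratin KRT7 had 87290.1 and 57869, 195105 and 104894, and 38358 and 36763, and KRT18 had 48692 and 38662, 61379 and 59432, and 25217 and 23116. KRT8 overlapped siControl with both siRNAs, at means of 110% and 113% of siControl. EPCAM overlapped siControl with siADAR1 #1 and lay above it with siADAR1 #2, at 125%. CDH1 was uneven between replicates, with 210 and 39.8 in siControl. Leukocyte markers summed to at most 134, with CD3E at 0 and most of the sum from CD14 (44.6 and 34.7 in siControl, 119 and 113 with siADAR1 #1, 21.5 and 30.8 with siADAR1 #2), and endothelial markers to at most 62.1. The part of these markers in the results below was not tested.

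The siRNAs left different patterns over the 10 genes. With siADAR1 #1, 3 members rose (DUSP5, DUSP6 and SPRED1) and 1 fell (SPRY2), 4 called beside 18.1% of all genes tested (6.62% higher and 11.4% lower). With siADAR1 #2, 2 members rose (DUSP4 and DUSP5) and 4 fell (SPRY2, ETV4, ETV5 and FOSL1), 6 called beside 28.1% of all genes (11.7% higher and 16.5% lower). Set directly against siADAR1 #1, siADAR1 #2 had 1 member higher (DUSP4) and 6 lower (DUSP6, SPRY4, ETV4, ETV5, EGR1 and FOSL1), 7 called beside 34.5% of all genes (17.6% higher and 16.9% lower). Among the 9127 genes at least as abundant on average as DUSP4, the called shares were 25.4%, 38.5% and 44.8%. The median log2FC of the 10 members was 0.42 with siADAR1 #1, -0.36 with siADAR1 #2, and -0.61 between the siRNAs. Over all genes tested it was -0.03, -0.02 and 0.00.

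**Figure D1:**
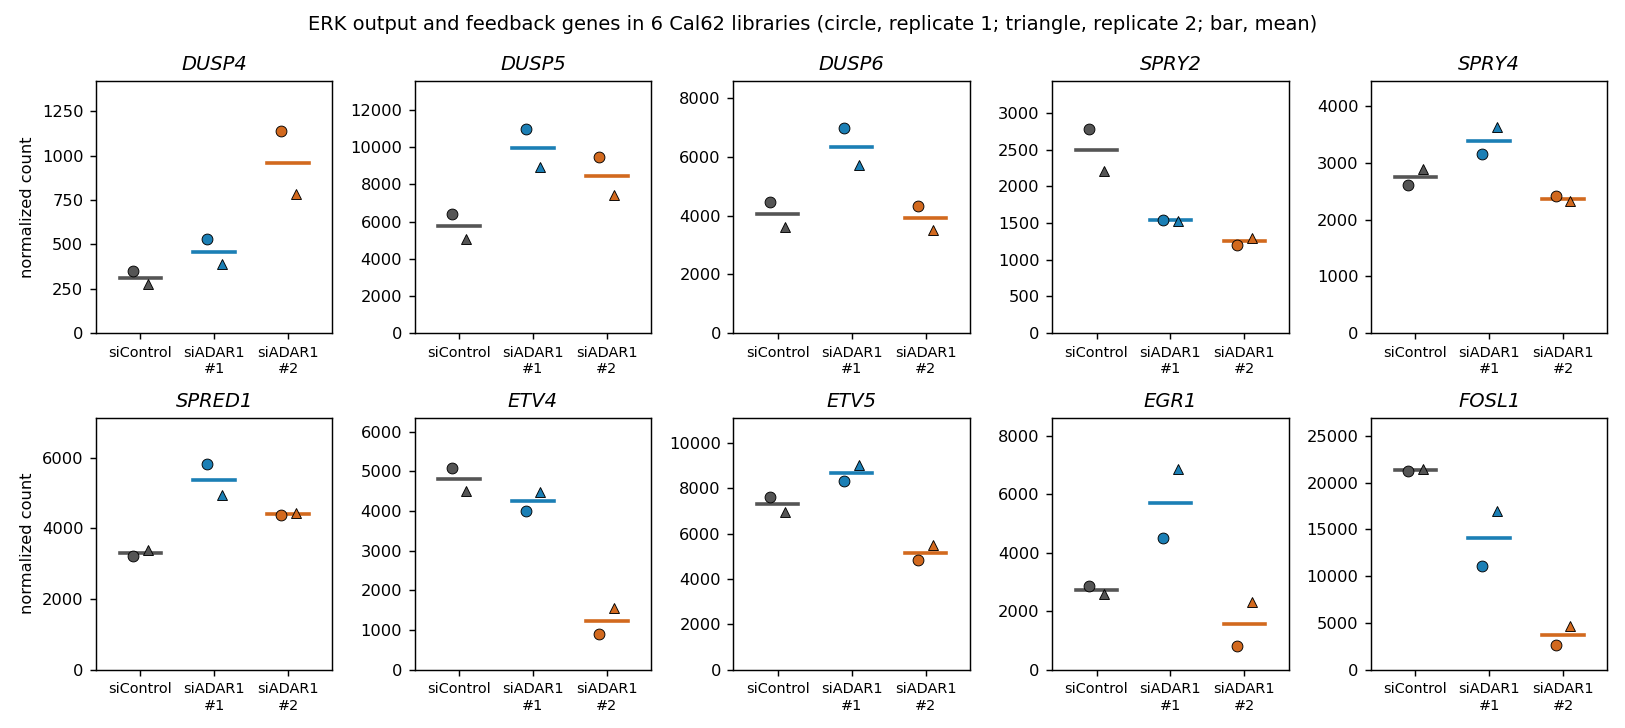
Normalized counts of the 10 genes (y axes, each from 0) in siControl, siADAR1 #1 and siADAR1 #2 (x axes), with a circle for replicate 1, a triangle for replicate 2 and a bar for the mean of the 2. FOSL1 drops from 21271 and 21515 in siControl to 2642 and 4727 with siADAR1 #2, and DUSP5 is above siControl in all 4 libraries with an siRNA against ADAR.

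Both comparisons with siControl use the same 2 siControl libraries, so they are not independent of each other. They are set side by side for each gene, and the direct comparison of the siRNAs is given as their own test. Over all genes tested, replicate numbers paired the libraries to a small extent (correlations of 0.116 to 0.180). DUSP4, DUSP5 and DUSP6 were each higher in replicate 1 than in replicate 2 in every condition. The main fit and the fits with a library left out did not use the replicate number. The part of this order in their calls was not tested. Results with the replicate number as a block are given where they changed the call of a member, and no member lost a call with the block.

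DUSP4 is an inducible phosphatase of the nucleus (ENSG00000120875, chr8:29333064-29350684, minus strand, GRCh38). Its normalized counts were 352 and 274 in siControl, 529 and 389 with siADAR1 #1, and 1141 and 782 with siADAR1 #2. The groups did not overlap, and the libraries with siADAR1 #2 were the highest. DUSP4 thus rose with siADAR1 #2, to 307% of the siControl mean (log2FC 1.60 ± 0.25, adjusted p = 0.00267). With siADAR1 #1 the mean was 147% of siControl and was not called (log2FC 0.54 ± 0.25, adjusted p = 0.171), although it was with the replicate block (adjusted p = 0.0448). Between the siRNAs, DUSP4 was higher with siADAR1 #2 (log2FC 1.05 ± 0.25, adjusted p = 0.0123).

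DUSP5 (ENSG00000138166, chr10:110497907-110511533, plus strand) encodes a nuclear phosphatase that binds ERK. It had 6413 and 5089 normalized counts in siControl, 11013 and 8949 with siADAR1 #1, and 9460 and 7435 with siADAR1 #2. All 4 siADAR1 libraries lay above both siControl libraries, and the ranges of the siRNAs overlapped each other. DUSP5 was called higher with siADAR1 #1 (log2FC 0.80 ± 0.17, adjusted p = 0.0180) and with siADAR1 #2 (log2FC 0.55 ± 0.17, adjusted p = 0.0439). The difference between the siRNAs was -0.24 ± 0.17 (adjusted p = 0.310).

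DUSP6 is the cytoplasmic ERK phosphatase and a standard readout of ERK output (ENSG00000139318, chr12:89347235-89352501, minus strand). Its normalized counts were 4459 and 3619 in siControl, 6981 and 5722 with siADAR1 #1, and 4329 and 3504 with siADAR1 #2. The libraries with siADAR1 #1 stood above the others, while siControl and siADAR1 #2 overlapped. DUSP6 rose with siADAR1 #1 (log2FC 0.65 ± 0.17, adjusted p = 0.0299), and with siADAR1 #2 its mean was 97.0% of siControl (log2FC -0.04 ± 0.17, adjusted p = 0.868). It was lower with siADAR1 #2 than with siADAR1 #1 (log2FC -0.70 ± 0.17, adjusted p = 0.0122). Exons of DUSP6 share 1105 bases with the gene ENSG00000274021 on the opposite strand, which had a mean of only 47.0 normalized counts, and the strand setting of the counting was not given in the sources used here.

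Several phosphatase calls were lost when a library was left out. Without siControl replicate 1 the differences themselves were larger. Their log2FC was 0.96 for DUSP5 and 0.80 for DUSP6 with siADAR1 #1, and 0.72 for DUSP5 with siADAR1 #2. Without siControl replicate 2 these values were smaller, at 0.63, 0.50 and 0.39. Without siADAR1 #1 replicate 1, DUSP5 and DUSP6 had 0.65 and 0.51 with siADAR1 #1. Without siADAR1 #2 replicate 1, DUSP5 had 0.38 with siADAR1 #2, under the log2FC threshold. DUSP5 with siADAR1 #1 had an adjusted p of 0.0597 without siControl replicate 1, 0.110 without siControl replicate 2 and a value between these without siADAR1 #1 replicate 1. Without the same libraries, DUSP6 had 0.0750, 0.162 and 0.154. With siADAR1 #2, DUSP5 had 0.0600 without siControl replicate 1, 0.226 without siControl replicate 2 and 0.239 without siADAR1 #2 replicate 1. DUSP6 was likewise lost between the siRNAs without siADAR1 #1 replicate 1 (0.0672) or siADAR1 #2 replicate 2 (0.0718), and DUSP4 without siADAR1 #1 replicate 2 (0.0567) or siADAR1 #2 replicate 1 (0.0819). The rise of DUSP4 with siADAR1 #2 was called whichever library was left out.

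Sprouty proteins hold back RAS activation below growth factor receptors. SPRY2 (ENSG00000136158, chr13:80335976-80341126, minus strand) had 2781 and 2203 normalized counts in siControl, 1537 and 1530.0 with siADAR1 #1, and 1195 and 1301 with siADAR1 #2. Every siADAR1 library was below both siControl libraries. SPRY2 fell with siADAR1 #1 (log2FC -0.69 ± 0.15, adjusted p = 0.0170) and with siADAR1 #2 (log2FC -0.99 ± 0.15, adjusted p = 0.00218), to 61.5% and 50.1% of the siControl mean. The further difference between the siRNAs was not called (log2FC -0.30 ± 0.15, adjusted p = 0.149). With siADAR1 #1 the call was lost without siControl replicate 1 (adjusted p = 0.108) or siADAR1 #1 replicate 1 (0.0684).

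SPRY4, a paralog of SPRY2 with the same kind of role (ENSG00000187678, chr5:142310427-142326455, minus strand), moved otherwise. Its normalized counts were 2618 and 2893 in siControl, 3152 and 3639 with siADAR1 #1, and 2410 and 2323 with siADAR1 #2. The 3 groups did not overlap, with siADAR1 #1 highest and siADAR1 #2 lowest. Neither difference from siControl was called (log2FC 0.30 ± 0.13, adjusted p = 0.137, and -0.22 ± 0.13, adjusted p = 0.230). SPRY4 was lower with siADAR1 #2 than with siADAR1 #1 (log2FC -0.52 ± 0.13, adjusted p = 0.0137), just past the threshold of 0.5. That call was lost without siADAR1 #1 replicate 2 (adjusted p = 0.0629), siADAR1 #2 replicate 1 (0.0544) or siADAR1 #2 replicate 2 (0.0663).

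SPRED1 brings the RAS inhibitor neurofibromin to the membrane (ENSG00000166068, chr15:38252836-38357249, plus strand). It had 3222 and 3393 normalized counts in siControl, 5813 and 4952 with siADAR1 #1, and 4385 and 4424 with siADAR1 #2. All siADAR1 libraries were above siControl, and those with siADAR1 #1 were the highest. SPRED1 rose with siADAR1 #1 (log2FC 0.70 ± 0.12, adjusted p = 0.00852), a call lost without siControl replicate 1 (adjusted p = 0.0672). With siADAR1 #2 its adjusted p of 0.0327 passed the threshold while its log2FC of 0.41 ± 0.12 did not, so it was not called. The siRNAs differed by -0.28 ± 0.12 (adjusted p = 0.0969).

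**Figure D2:**
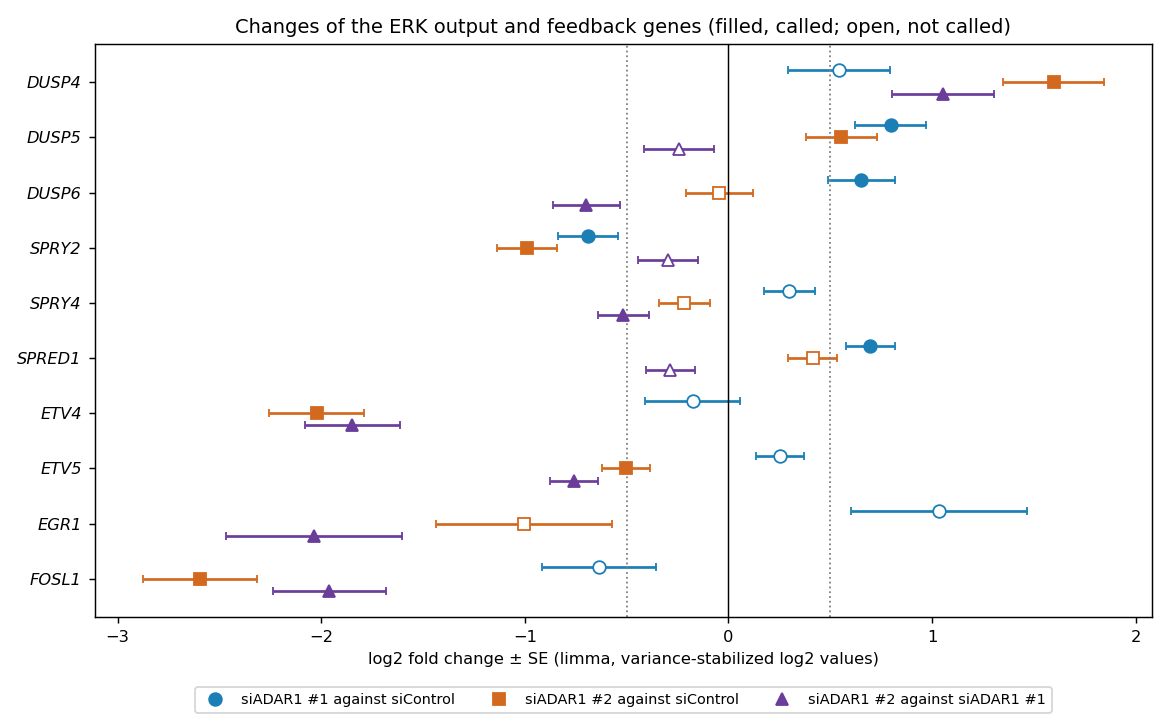
Log2FC of the 10 genes (x axis, with bars of 1 SE from limma) in the 3 comparisons (circles, squares and triangles), filled where called and open where not, with dotted lines at log2FC 0.5 in either direction. DUSP5 lies to the right and SPRY2 to the left in both comparisons with siControl, while ETV4 and FOSL1 reach -2.02 and -2.60 with siADAR1 #2 against -0.17 and -0.64 with siADAR1 #1.

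ETV4 and ETV5 are ETS transcription factors of the PEA3 group, which ERK induces and which in turn act on growth and invasion genes. ETV4 (ENSG00000175832, chr17:43527844-43579620, minus strand) stood at 5082 and 4507 normalized counts in siControl, 4012 and 4482 with siADAR1 #1, and 896 and 1544 with siADAR1 #2. The libraries with siADAR1 #2 were far below the other 4. ETV4 fell to 25.4% of siControl with siADAR1 #2 (log2FC -2.02 ± 0.23, adjusted p = 0.000851), whereas siADAR1 #1 left it at 88.6% (log2FC -0.17 ± 0.23, adjusted p = 0.649, turning to 0.00 when each library was centred on its median). Between the siRNAs the difference was -1.85 ± 0.23 (adjusted p = 0.000855). ETV4 was called in both comparisons that include siADAR1 #2 whichever library was left out. Its exons share 68 bases with DHX8 on the opposite strand, a gene with a mean of 4991 normalized counts.

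ETV5 (ENSG00000244405, chr3:186046314-186110318, minus strand) had 7617 and 6966 normalized counts in siControl, 8340 and 9045 with siADAR1 #1, and 4825 and 5477 with siADAR1 #2. The groups did not overlap, and siADAR1 #1 and #2 lay on opposite sides of siControl. ETV5 fell with siADAR1 #2 to 70.6% of siControl (log2FC -0.50 ± 0.12, adjusted p = 0.0144), at the edge of the log2FC threshold, and the value with siADAR1 #1 was 0.25 ± 0.12 (adjusted p = 0.174). The call with siADAR1 #2 was lost without siControl replicate 1 (log2FC -0.44, adjusted p = 0.0857) or siADAR1 #2 replicate 1 (-0.41, 0.110), with libraries centred on their medians (log2FC -0.43, adjusted p = 0.0226) and with recomputed size factors (log2FC -0.49, adjusted p = 0.0138). The difference between the siRNAs was larger (log2FC -0.76 ± 0.12, adjusted p = 0.00199) and was called whichever library was left out. Exons of ETV5 share 164 bases with DGKG on the same strand, which had a mean of 660.4 normalized counts.

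EGR1 is a zinc finger factor induced within minutes of ERK activation (ENSG00000120738, chr5:138465479-138469303, plus strand). Its normalized counts were 2859 and 2589 in siControl, 4506 and 6884 with siADAR1 #1, and 797 and 2308 with siADAR1 #2. The groups did not overlap, but replicates with an siRNA against ADAR lay far apart, with SDs of 1681 and 1069 around means of 5695 and 1553. Neither difference from siControl was called (log2FC 1.03 ± 0.43, adjusted p = 0.135, and -1.002 ± 0.43, adjusted p = 0.117). With the replicate block both were (adjusted p = 0.0451 and 0.0375). A limma fit of only siControl and siADAR1 #1 also called EGR1 higher with siADAR1 #1 (log2FC 1.03, adjusted p = 0.0150). Without siADAR1 #2 replicate 2 the difference with siADAR1 #2 was -1.77 ± 0.25. EGR1 was lower with siADAR1 #2 than with siADAR1 #1 (log2FC -2.04 ± 0.43, adjusted p = 0.00773), by -1.27 without siADAR1 #2 replicate 1 and by -2.80 without siADAR1 #2 replicate 2.

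Promoter windows of 300 bases, from 250 before to 50 after each RefSeq start (GRCh38.p14), were at hand for 5 members: DUSP6, EGR1, SPRED1, SPRY2 and SPRY4. They are shown for the CArG box, the site bound by serum response factor (SRF), through which ERK and its ETS partner ELK1 act on immediate early genes. Of these 5 genes, EGR1 was the one with a CArG box on either strand, and it had 2 that do not overlap. Only 454 of the 35116 windows of all genes (1.29%) held such a box. Of the genes from other lists whose values are given below, the immediate early genes EGR2 and SRF itself and the kinase gene MKNK2 also held letters that match the box. Whether SRF binds at any of these matches was not tested. The sequences follow in the direction of transcription, with the box in capitals. Positions are those of the whole sequence shown, and the distance is that of the first base of the box from the RefSeq start.
EGR1 (chr5:138465365-138465392, plus strand, 105 bases before the start): ccggtcctgCCATATTAGGgcttcctgc
EGR1 (chr5:138465387-138465414, plus strand, 83 bases before the start): tcctgcttcCCATATATGGccatgtacg
EGR2 (chr10:62816419-62816446, minus strand, 71 bases before the start): ttcctcagtCCATATATGGgcagcgacg
SRF (chr6:43171230-43171257, plus strand, 30 bases before the start): tggggctcaCCATATAAGGagcggcctc
SRF (chr6:43171250-43171277, plus strand, 10 bases before the start): gcggcctcgCCATAAAAGGaaacattgt
MKNK2 (chr19:2051257-2051284, minus strand, 31 bases before the start): aggtccgggCCTATAAAGGtggcggcgg

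The second EGR1 box and the EGR2 box hold the same letters. An AP-1 site (TGANTCA, in 7.71% of all windows), a CRE (TGACGTCA, 1.85%) and an ETS site (CCGGAAG, 10.3%), searched on both strands, were found in 0 of the windows of these 5 members. A match describes letters only, and no factor's binding was measured. Of the genes from other lists whose values are given below, DUSP1, JUND, AREG and EPHA2 had a CRE and FOSL2, PLAUR and SPRED2 an AP-1 site.

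FOSL1 encodes FRA1, a partner in the AP-1 dimer that accumulates under sustained ERK signalling (ENSG00000175592, chr11:65892049-65900573, minus strand). It had 21271 and 21515 normalized counts in siControl, 11113 and 17007 with siADAR1 #1, and 2642 and 4727 with siADAR1 #2. Every siADAR1 library was below siControl, and those with siADAR1 #2 were the lowest. FOSL1 fell with siADAR1 #2 to 17.2% of siControl (log2FC -2.60 ± 0.28, adjusted p = 0.000687), the largest difference from siControl of any member. With siADAR1 #1 it stood at 65.7% and was not called (log2FC -0.64 ± 0.28, adjusted p = 0.153), although it was with the replicate block (adjusted p = 0.0345). Between the siRNAs the difference was -1.96 ± 0.28 (adjusted p = 0.00140), called whichever library was left out, as was the fall with siADAR1 #2.

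Some member calls also depended on the model of the spread between replicates or on the filter. With no trend in limma's eBayes, the 4 calls with siADAR1 #1 were lost (adjusted p = 0.0777 for DUSP5, 0.102 for DUSP6, 0.0651 for SPRY2 and 0.0504 for SPRED1). The same setting ended the calls of DUSP5 (0.124) and ETV5 (0.0655) with siADAR1 #2, and of DUSP6 (0.0533) and SPRY4 (0.0525) between the siRNAs. With no filter on low genes, DUSP6 with siADAR1 #1 (0.0619) and DUSP5 with siADAR1 #2 (0.0853) were not called, and with robust eBayes EGR1 between the siRNAs was not (0.0660). Quantile normalization took ETV5 with siADAR1 #2 and SPRY4 between the siRNAs under the log2FC threshold (-0.34 and -0.44) and SPRED1 with siADAR1 #2 over it (0.57). DUSP4, SPRY2, ETV4 and FOSL1 with siADAR1 #2, and DUSP4, ETV4, ETV5 and FOSL1 between the siRNAs, were called in every one of these settings.

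The levels of the members can be compared with each other per kilobase of annotated exon, which takes the length of the genes into account. In siControl, FOSL1 was the most abundant member with a mean of 11337 normalized counts per kb, followed by DUSP5 (2269), ETV4 (1364), ETV5 (1263), DUSP6 (1047), EGR1 (868), SPRY2 (776), SPRED1 (427), SPRY4 (420.3) and DUSP4 (43.0). Neighbours whose 2 siControl libraries overlapped were ETV4 and ETV5, EGR1 and SPRY2, and SPRED1 and SPRY4.

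Ratios of related genes within a library do not depend on the size factors, and they were looked at after the values above had been seen, as descriptions with no test. Per kb of exon, ETV4 over ETV5 was 1.10 and 1.06 in siControl, 0.790 and 0.814 with siADAR1 #1, and 0.305 and 0.463 with siADAR1 #2. DUSP4 over DUSP6 was 0.0419 and 0.0402 in siControl, 0.0402 and 0.0361 with siADAR1 #1, and 0.140 and 0.118 with siADAR1 #2. Thus both pairs shifted most with siADAR1 #2, while DUSP4 and DUSP6 kept nearly the same proportion with siADAR1 #1. SPRY2 over SPRY4 was 2.17 and 1.55 in siControl, 0.995 and 0.858 with siADAR1 #1, and 1.01 and 1.14 with siADAR1 #2, lower in all 4 siADAR1 libraries. FOSL1 over its paralog FOSL2, an immediate early gene on the list below, was 16.9 and 27.5 in siControl, 13.1 and 22.3 with siADAR1 #1, and 1.90 and 3.74 with siADAR1 #2. In that pair siControl and siADAR1 #1 overlapped and siADAR1 #2 lay apart.

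**Figure D3:**
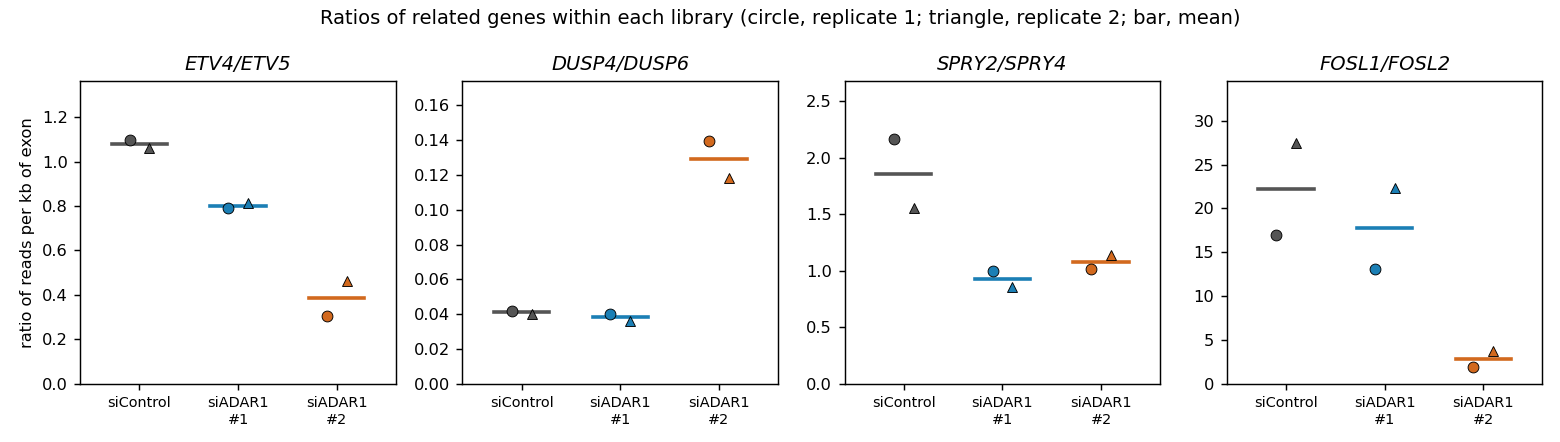
Ratios of reads per kb of exon of 4 pairs of related genes within each library (y axes, each from 0) by condition (x axes), with a circle for replicate 1, a triangle for replicate 2 and a bar for the mean. ETV4 over ETV5 is 0.305 and 0.463 with siADAR1 #2 against 1.06 or more in siControl, and DUSP4 over DUSP6 is 0.118 or more with siADAR1 #2 against at most 0.0419 elsewhere.

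Other genes of the pathway were taken from 3 lists: 18 immediate early genes, 18 other ERK-responsive genes and 40 genes of the RAS-RAF-MEK-ERK cascade and its regulators. EGR3, EGR4 and RPS6KA2 were too low to be tested. Of the 16 immediate early genes tested, 4 rose and 3 fell with siADAR1 #1, and 2 rose and 4 fell with siADAR1 #2. These are 43.8% and 37.5% called, beside 18.1% and 28.1% of all genes and 25.4% and 38.5% of genes at least as abundant as DUSP4. The 7 calls with siADAR1 #1 became 3 without siControl replicate 1 and 4 without siADAR1 #1 replicate 1 or with no trend in eBayes. FOSB, EGR2 and DUSP2 on this list were less abundant on average than DUSP4. Against siADAR1 #1, 3 immediate early genes were higher and 10 lower with siADAR1 #2. That is 81.2% called, beside 34.5% of all genes and 44.8% of genes at least as abundant as DUSP4. The median log2FC of the immediate early genes was 0.22, -0.31 and -0.93 in these comparisons, beside -0.03, -0.02 and 0.00 over all genes. Centring the libraries on their medians raised the median over all genes by 0.18 with siADAR1 #1, and then 7 of these genes rose and 1 fell.

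EGR2, a relative of EGR1, had 26.1 and 29.6 normalized counts in siControl, 135 and 149 with siADAR1 #1, and 15.9 and 30.8 with siADAR1 #2. It rose with siADAR1 #1 (log2FC 2.25 ± 0.36, adjusted p = 0.00695), as did ATF3 (2.27, 0.00239), DUSP1 (1.66, 0.00441) and JUNB (1.30, 0.00312). With siADAR1 #2 the log2FC of EGR2 was -0.30, of DUSP1 -0.33 and of JUNB 0.28, none of them called, whereas ATF3 rose (1.05, adjusted p = 0.00893). FOS, which pairs with JUN proteins in AP-1, fell with siADAR1 #2 (log2FC -1.54, adjusted p = 0.00129) and had 0.21 with siADAR1 #1 (adjusted p = 0.511). SRF fell with siADAR1 #2 (log2FC -0.94, adjusted p = 0.00174) and had -0.36 with siADAR1 #1 (0.0994). JUND, an AP-1 subunit, went in opposite directions, lower with siADAR1 #1 (log2FC -0.96, adjusted p = 0.0101) and higher with siADAR1 #2 (1.01, 0.00409). Between the siRNAs, EGR2 (log2FC -2.55), DUSP1 (-1.99), FOS (-1.75), ATF3 (-1.22), JUNB (-1.02) and SRF (-0.59) were lower with siADAR1 #2 and JUND (1.97) was higher, with adjusted p-values from 0.000264 to 0.0100.

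Of the 18 other ERK-responsive genes, 3 rose and 3 fell with siADAR1 #1, 2 rose and 8 fell with siADAR1 #2, and 2 were higher and 8 lower with siADAR1 #2 than with siADAR1 #1. The called shares were 33.3%, 55.6% and 55.6%. Beside them stood 18.1%, 28.1% and 34.5% of all genes, and 25.4%, 38.5% and 44.8% of genes at least as abundant as DUSP4. DUSP9, SPRY1, EPHA4, AREG and EREG on this list were less abundant on average than DUSP4. The 6 calls with siADAR1 #1 became 1 without siControl replicate 1 and 2 without siControl replicate 2 or with no trend, and the 10 with siADAR1 #2 became 3 without siControl replicate 1 or siADAR1 #2 replicate 1, 6 without siControl replicate 2 and 5 with no trend. Their median log2FC was 0.27, -0.45 and -0.57, and with centred libraries 5 rose and 2 fell with siADAR1 #1. CCND1, the cyclin that carries ERK signals into the cell cycle, had 43376 and 40136 normalized counts in siControl, 40949 and 36429 with siADAR1 #1, and 17211 and 18217 with siADAR1 #2. It fell with siADAR1 #2 (log2FC -1.24, adjusted p = 0.000399) and had -0.11 with siADAR1 #1 (0.531). HBEGF, a ligand of the EGF receptor, was called in opposite directions, with a log2FC of 1.07 with siADAR1 #1 (adjusted p = 0.00982) and -1.35 with siADAR1 #2 (0.00188). AREG, another ligand of that receptor, rose from 40.3 and 34.7 normalized counts to 269 and 237 with siADAR1 #2 (log2FC 2.68, adjusted p = 0.000502), and had 0.26 with siADAR1 #1 (0.536).

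SPRED2, a paralog of SPRED1, fell with siADAR1 #2 (log2FC -0.65, adjusted p = 0.00785), with 0.30 for siADAR1 #1 (0.161). MCL1, a survival protein of the BCL2 family, and EPHA2, an ephrin receptor, rose with siADAR1 #1 (log2FC 0.87 and 0.71, adjusted p = 0.00317 and 0.00890). With siADAR1 #2 their values were 0.26 and -0.05, not called. PHLDA1 and PLAUR, the urokinase receptor, fell with siADAR1 #1 (log2FC -1.23 and -1.20, adjusted p = 0.00491 and 0.0296) and with siADAR1 #2 (-0.56 and -1.06, adjusted p = 0.0456 and 0.0313).

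The cascade itself held 39 genes tested, of which 6 rose and 3 fell with siADAR1 #1 and 5 rose and 12 fell with siADAR1 #2. Between the siRNAs, 5 were higher and 12 lower with siADAR1 #2. The called shares of 23.1%, 43.6% and 43.6% lay near the 25.4%, 38.5% and 44.8% of genes at least as abundant as DUSP4. They lay above the 18.1%, 28.1% and 34.5% of all genes. MRAS, RRAS, GAB1, KSR1 and RPS6KA5 on this list were less abundant on average than DUSP4. The 9 calls with siADAR1 #1 became 1 without siControl replicate 1, 4 without siControl replicate 2 and 3 without siADAR1 #1 replicate 1 or with no trend. The 17 with siADAR1 #2 became 9 without siControl replicate 1, 11 without siControl replicate 2, 6 without siADAR1 #2 replicate 1 and 10 with no trend. The median log2FC was 0.05, -0.19 and -0.25. MRAS, a relative of the RAS proteins, rose with siADAR1 #1 (log2FC 1.48, adjusted p = 0.00749) and had 0.26 with siADAR1 #2 (0.456).

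Members of the family of RAS GTPase-activating proteins, which switch RAS off, were called in different directions. RASA2 rose with siADAR1 #1 (log2FC 0.77, adjusted p = 0.0158) and fell with siADAR1 #2 (-1.18, 0.00157), RASAL2 fell with siADAR1 #1 (-1.25, 0.00313) and rose with siADAR1 #2 (0.81, 0.00491), and RASA1 fell with siADAR1 #2 (-1.44, 0.000465) with -0.41 for siADAR1 #1 (0.0731). ELK1, the ETS factor that ERK phosphorylates at CArG boxes, fell from 3178 and 2908 normalized counts to 637 and 883 with siADAR1 #2 (log2FC -2.01, adjusted p = 0.000355), and had -0.27 with siADAR1 #1 (0.308). RPS6KA5, a nuclear kinase below ERK, fell with siADAR1 #2 (log2FC -1.71, adjusted p = 0.00114) with -0.01 for siADAR1 #1. MKNK2, a kinase that ERK activates, fell with siADAR1 #1 (log2FC -1.03, adjusted p = 0.0120) with 0.06 for siADAR1 #2.

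Some calls of these named genes were lost when a library was left out. Without siControl replicate 1, 9 genes named here were no longer called with siADAR1 #1 (EGR2, EPHA2, HBEGF, JUND, MKNK2, MRAS, PHLDA1, PLAUR and RASA2, with adjusted p-values from 0.0502 to 0.168), nor were 3 with siADAR1 #2 (PHLDA1, PLAUR and SPRED2, from 0.0633 to 0.247). Without siControl replicate 2, EPHA2, HBEGF, PLAUR and RASA2 were lost with siADAR1 #1 (0.0577 to 0.115), and ATF3 and PLAUR with siADAR1 #2 (0.0669 to 0.107). Without siADAR1 #1 replicate 1, JUND, MKNK2 and RASA2 were lost with siADAR1 #1 (0.0553 to 0.0807). Without siADAR1 #2 replicate 1, PHLDA1, PLAUR and SPRED2 were lost with siADAR1 #2 (0.0614 to 0.194), and without siADAR1 #2 replicate 2, PHLDA1 and PLAUR were (0.0806 and 0.0812). Between the siRNAs, SRF was lost without siADAR1 #1 replicate 2 (0.0464, with a log2FC under 0.5) or siADAR1 #2 replicate 1 (0.0738). Without a trend in eBayes, EPHA2, HBEGF, JUND, MKNK2, PLAUR and RASA2 were not called with siADAR1 #1, nor PHLDA1 and PLAUR with siADAR1 #2. PLAUR was lost with both siRNAs under robust eBayes or with no filter, and PHLDA1 with siADAR1 #2 with no filter or once libraries were centred or quantile-normalized.

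**Figure D4:**
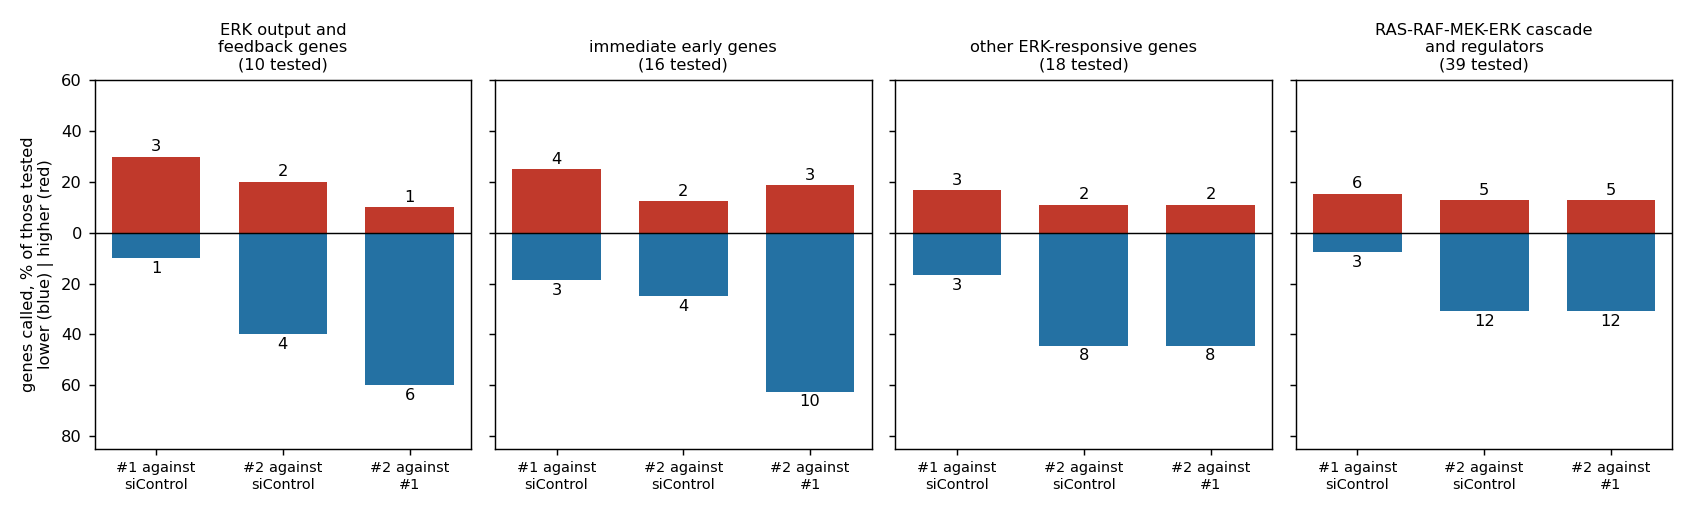
Percent of the genes tested (y axis) that were called higher (red, above 0) or lower (blue, below 0) in each comparison (x axis), with the number of genes at each bar, for the 10 ERK output and feedback genes and the 3 lists of other pathway genes. Between the siRNAs the lower calls outnumber the higher ones in every panel, 6 to 1, 10 to 3, 8 to 2 and 12 to 5. Over all genes tested, not drawn here, this comparison had 3316 lower and 3445 higher calls. With libraries centred on their medians, all genes had 4041 lower and 2925 higher calls.

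When the 4 siADAR1 libraries were taken as 1 group against siControl, 0 of the 10 members and 0% of all genes were called by limma. The smallest adjusted p over all genes was 0.0972, a value that ADAR had, and 2818 genes had an unadjusted p under 0.05. The members' log2FC ran from -1.62 ± 0.71 for FOSL1 to 1.07 ± 0.44 for DUSP4, with a median of 0.03. In this fit the difference between the siRNAs counts as spread within the group. Averaging the log2FC of both siRNAs from the 3-group model kept it apart, and called 6 members: DUSP4, DUSP5 and SPRED1 higher and SPRY2, ETV4 and FOSL1 lower, with 3586 genes called in all. That average does not require the siRNAs to share a change, and for ETV4 it joined -0.17 with siADAR1 #1 and -2.02 with siADAR1 #2.

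**Figure D5:**
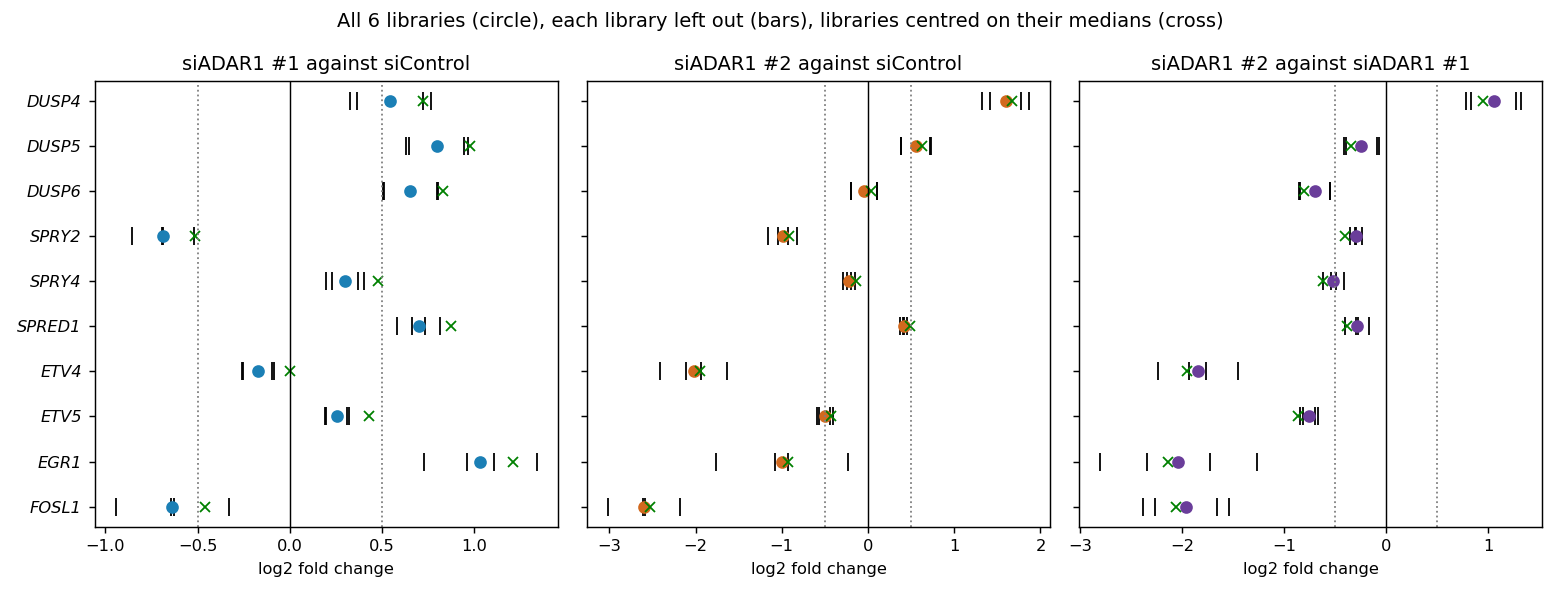
Log2FC of the 10 genes (x axes) in 3 comparisons with all 6 libraries (circles), with each library of the comparison left out in turn (vertical ticks) and with libraries centred on their medians (crosses), with dotted lines at log2FC 0.5 in either direction. FOSL1 with siADAR1 #2 stays between -3.02 and -2.18, and EGR1 with siADAR1 #2 runs from -1.77 to -0.24.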

How the data were processed

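Poly(A)+ libraries (KAPA mRNA HyperPrep, Illumina NextSeq, 75-bp paired-end reads) were trimmed with Atropos and counted on genes with featureCounts in bcbio-nextgen by the authors, on GRCh38. The paper prefers Salmon estimates as input to DESeq2, and whether the deposited values come from these or from featureCounts is not given in the sources used here. The deposited values are log2 values, which the authors made from size-factor-normalized counts in DESeq2 with a variance-stabilizing transformation, as read from the values. Undoing it gave whole reads, within 0.1, for 100% of the values in every library. The labels name 1 sample per transfection with 2 columns each, taken as the 2 biological replicates of the paper's methods. Whether they came from separate cultures is not in the labels, and p-values measure only the spread between these libraries. Of 58333 genes, 57830 had a symbol in GENCODE 44, and 0 columns were left unused.

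Genes whose mean passed the value of 10 normalized counts were tested with limma 3.58.1 in R 4.3.3 (3 groups, eBayes with trend, two-sided, adjusted over 19590 genes). The code was tested on simulated data. The members and lists were chosen with earlier results of these data known. Genes named from a list are those called in the same direction with both siRNAs and the 4 with the smallest adjusted p against siControl per siRNA, and FOSL2 was added after its values were seen. 2 genes that this rule names are not reported here. The difference between replicates 2 and 1 correlated at 0.116 (siControl and siADAR1 #1), 0.123 (siControl and siADAR1 #2) and 0.180 (between siRNAs), so replicate numbers were tried as a block. The other alternatives were 2 filters, 3 scalings, 2 spread models, voom, log2 of the normalized count plus 1, fits of only the conditions compared, and each library left out. A condition left with 1 library was assumed to vary like the others. Limits from 3 reads cover counting error only.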

Additional observations from a re-analysis of the deposited data

Results flagged for a closer look

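For 7 of the 10 genes the effects of the siRNAs differed by limma's test of siADAR1 #2 against siADAR1 #1. The log2FC of this difference was -2.0352 for EGR1, -1.9591 for FOSL1, -1.8479 for ETV4, -0.7564 for ETV5, -0.698 for DUSP6, -0.5171 for SPRY4 and 1.0528 for DUSP4, with adjusted p-values from 0.000855 to 0.0137. In this comparison 34.5% of all genes were called. ADAR itself differed by 0.35 ± 0.30 between the siRNAs (adjusted p = 0.396), which does not show that the knockdowns were alike. Markers differed too: PAX8 had 2542 and 5484 normalized counts with siADAR1 #2 against 10272 and 15074 with siADAR1 #1, and TSHR had 95.3 and 107 against 61.7 and 41.5. Their part in these differences was not tested.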

How the results depend on the processing

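Of the members' log2FC values under all alternatives, 558 kept direction and side of the threshold, 36 lost a call, 13 gained one and 13 changed sign, none of these while called. With siADAR1 #1, 4 members were called, and the fit of only the conditions compared added EGR1. The replicate block gave 7 (adding DUSP4, EGR1 and FOSL1) and eBayes without a trend 0, and leaving out a library gave 0 to 4. With siADAR1 #2 the replicate block added EGR1, and it changed no other member's call. On the lists the block added 1 call each to immediate early and other ERK-responsive genes with siADAR1 #1 (8 and 7), and to other ERK-responsive and cascade genes between the siRNAs (11 and 18). The average of the siRNA changes called 6 members where the single siADAR1 group called 0. Sign changes were seen with siADAR1 #1 for ETV4 (0.0034 with centred libraries) and with siADAR1 #2 for DUSP6 (0.0298 centred, 0.0957 quantile-normalized, -0.1972 to 0.1079 with a library left out). Between the siRNAs, ADAR ran from -0.0540 (without siADAR1 #2 replicate 2) to 0.7608 and was at -0.0252 without siADAR1 #1 replicate 1. With the siADAR1 libraries as 1 group, ETV5 was at 0.0017 when centred, and with a library left out it ran from -0.2701 to 0.0320, SPRY4 from -0.0799 to 0.1358 and EGR1 from -0.4255 to 0.6099. The cause of these shifts was not tested.

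Over all genes, the 3536 called with siADAR1 #1 became 1800 without a trend, 464 without siControl replicate 1, 1288 without siControl replicate 2 and 1471 without siADAR1 #1 replicate 1. The 5511 called with siADAR1 #2 became 3221 when siControl replicate 1 and 3317 when siADAR1 #2 replicate 1 was left out. The higher share of the calls with siADAR1 #1 was 36.7%, 58.2% with centred and 47.8% with quantile-normalized libraries. Under the latter, members with siADAR1 #2 split 3 higher to 3 lower, immediate early genes 4 to 4 and cascade genes 6 to 7. With siADAR1 #1, other ERK-responsive genes split 4 to 2 (5 to 2 centred) and cascade genes 7 to 2 (also 7 to 2 centred). At 2 libraries per condition the number of replicates limits these calls.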
